A study of Mus musculus with 9 samples.

Results

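The genes described here are the 8 that make up the activator arm and the stabilising loop of the circadian clock: Arntl, Clock, Npas2, Nr1d1, Nr1d2, Rora, Bhlhe40 and Bhlhe41. They were chosen by symbol, each was found as 1 gene in the feature tables of all 9 libraries, and they are 8 of the 30406 genes that the tables share. They were measured by single-cell RNA sequencing (10x Genomics, 3′ end counting) in mouse embryonic fibroblast (MEF) cultures undergoing reprogramming to induced neurons (iNs), with counts of unique molecular identifiers (UMI), each of which stands for 1 captured transcript. Cultures were labelled WT, Per1-/- or Per2-/-, and 1 library was made of each genotype on days 4, 7 and 10. All cultures, WT included, carried doxycycline-inducible neuronal reprogramming factors together with the activator M2rtTA on lentivirus, and day counts start when doxycycline was added with the change of medium. Per the study's methods, MEFs came from mid-gestation embryos after removal of head and heart, cells of several embryos were pooled in a dish, the sex of the embryos was not determined, and the mutants carried the alleles Per1tm1Drw and Per2tm1Drw in all cells. The labels do not say which libraries share a MEF preparation, so each genotype rests on 3 libraries of different days and a genotype cannot be told apart from the embryos behind it.

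In the clock, BMAL1 (encoded by Arntl) pairs with CLOCK or its paralog NPAS2, binds E-boxes and activates transcription of Per and Cry genes, whose products repress the pair. Another loop acts on Arntl itself: the nuclear receptors REV-ERBα (Nr1d1) and REV-ERBβ (Nr1d2) repress Arntl through response elements (ROREs) at which RORα (Rora) activates, and both REV-ERB genes are targets of the pair. DEC1 (Bhlhe40) and DEC2 (Bhlhe41) are repressors that compete for E-boxes, and DEC1 also responds to hypoxia. Arntl is thus both driver and target of that loop, and REV-ERBs are known in macrophages as repressors of inflammatory genes.

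Promoter windows show where the letters of this loop lie. They are RefSeq sequences of GRCm38.p6 from 250 bases before to 50 bases after a start, 5′ to 3′ on the strand of the gene, and 10 windows were held for 7 of the 8 members. Bhlhe40 had no entry. Capitals mark matches, searched on both strands, to the RORE, to its core AGGTCA, or to the E-box CACGTG, and a RORE always holds the core. The 3 windows shown carry the only RORE match, a core match outside a RORE, and the only E-box match among the members.

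Arntl, chr7:113207261-113207560, plus strand: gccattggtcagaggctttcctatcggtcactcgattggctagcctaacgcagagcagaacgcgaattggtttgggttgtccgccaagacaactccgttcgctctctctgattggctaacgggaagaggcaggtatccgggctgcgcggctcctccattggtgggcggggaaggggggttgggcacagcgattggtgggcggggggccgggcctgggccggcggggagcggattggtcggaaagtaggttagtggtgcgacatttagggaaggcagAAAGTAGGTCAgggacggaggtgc

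Nr1d2, chr14:18239057-18239356, minus strand: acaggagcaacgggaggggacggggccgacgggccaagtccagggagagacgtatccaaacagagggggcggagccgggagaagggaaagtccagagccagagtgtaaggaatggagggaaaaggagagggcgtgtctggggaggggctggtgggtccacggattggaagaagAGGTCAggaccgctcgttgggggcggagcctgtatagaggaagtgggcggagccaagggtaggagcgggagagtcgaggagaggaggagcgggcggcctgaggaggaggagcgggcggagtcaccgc

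Bhlhe41, chr6:145865371-145865670, minus strand: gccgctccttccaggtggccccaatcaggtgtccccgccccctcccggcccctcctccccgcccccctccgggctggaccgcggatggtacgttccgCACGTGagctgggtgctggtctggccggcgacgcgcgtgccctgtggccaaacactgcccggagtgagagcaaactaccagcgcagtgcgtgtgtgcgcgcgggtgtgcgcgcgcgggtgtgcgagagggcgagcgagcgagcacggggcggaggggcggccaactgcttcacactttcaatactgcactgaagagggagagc

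The Arntl window held a RORE match whose first base is at position 27 after the start, and its core begins at position 32. Among 32851 windows of all genes, 0.384% held a RORE match, 16.3% a core match and 7.15% an E-box. In the Nr1d2 window the core began at position -77 relative to the start, and in that of Bhlhe41 the E-box began at position -153. A core match was also present in 1 of 3 Clock windows, on the other strand, and the other Arntl window and those of Npas2, Nr1d1 and Rora held none of these letters. A match of letters is not a measured binding site.

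The 9 libraries held 126625215 (WT, day 10) to 353198559 UMI (Per1-/-, day 4). After filtering, 6047 to 10663 cells per library were kept, 74835 in all, and any pair of libraries shared at most 30 barcodes among kept cells. The shallowest was WT on day 10: its barcodes held 3552 UMI at the median, and 55.4% of them were within the limits. The targeted genes went against their labels: Per1 stood at 9.14, 9.49 and 10.3 CPM (a gene's UMI scaled to the total UMI of its sum) on days 4, 7 and 10 where the label was Per1-/- and at 6.34, 6.63 and 7.89 CPM in WT, and Per2 at 6.32, 4.97 and 6.39 CPM in those labelled Per2-/- against 2.58, 2.79 and 2.99 CPM in WT. A 3′ tag outside the deleted part does not check a knockout, and whether the tags lie outside it was not tested. Per the study, the MEFs of each mutant were checked for the missing PER protein on western blots, which are no part of the data used here, and genotypes below are those of the labels. Xist, the RNA of the silenced X chromosome, was at 0.0674 and 0.0594 CPM in Per1-/- on days 7 and 10 against 347 to 996 CPM in the other libraries, and Y-linked genes at 209 and 216 CPM against 50.9 to 117 CPM.

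Cells were clustered without the 8 members and clusters were named from marker genes, with "-like" for a name rebuilt in this way. Although every library is labelled as induced neurons, neuron-like cells made 3.87% to 20.7% of kept cells, fibroblast-like cells 5.94% to 53.1% and macrophage-like cells 1.77% to 23%. Schwann-like cells made 1.22% to 9.45%, muscle-like cells 1.66% to 4.33%, the mesothelial-like class 0.225% to 1.92% and the astrocyte-like class 0.225% to 3.84%, and 21.2% to 64.8% of cells per library stayed unnamed. Some unnamed clusters were rich in fibroblast markers, so the fibroblast-like class does not cover all fibroblasts and its share is no measure of them. The largest cluster, c0 (9646 kept cells), stayed unnamed because 2 of its leading genes mark another class. Its mean level per fibroblast marker was 2998 CPM, against 1262 to 2398 CPM in clusters named fibroblast-like. All counts of a class were added up within each library to give 1 value in CPM, so the samples are libraries, not cells. Levels are compared within a gene only, because 3′ counts of different genes also depend on how well each transcript is captured.

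Among the 7 named classes, loop members peaked in different ones. By class mean, Arntl, Clock and Rora were highest in neuron-like cells, Nr1d1, Nr1d2 and Bhlhe40 in Schwann-like cells, Bhlhe41 in macrophage-like cells and Npas2 in fibroblast-like cells. The lead over the next class did not pass for Arntl, Clock, Rora, Bhlhe40 and Npas2 (exact permutation test over neighbouring classes, adjusted p of 0.0536 to 0.340). Schwann-like cells came next for Arntl and Clock, with means of 14.9 and 62.6 CPM against 19.1 and 70.3 CPM in neuron-like cells. Bhlhe41 set macrophage-like cells apart, whereas Bhlhe40 was nearly absent from neuron-like cells. Over the 3 main classes, 18 of the 24 paired differences between classes passed (2-sided exact sign-flip permutation test over 9 libraries, Benjamini-Hochberg adjusted over the 24). This test was run for the members alone, so no share of all genes stands beside the 18. Another measure, libraries of 2 classes that do not overlap, was read for all genes. Differences between classes are common in all genes, since 55.0% of 14253 genes had neuron-like and fibroblast-like libraries that did not overlap, 54.8% of 13577 genes did so for macrophage-like and fibroblast-like cells and 65.5% of 14304 genes for neuron-like and macrophage-like cells. These shares are over genes with a mean of at least 1 CPM in either class. The members stood at 4 of 8, 1 of 8 and 7 of 8 in these 3 comparisons. Npas2, which is 1 of the 4, was below that limit and is not among the genes of the shares. Its means were 0.979, 0.158 and 0.319 CPM in fibroblast-like, neuron-like and macrophage-like sums.

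**Figure D1:**
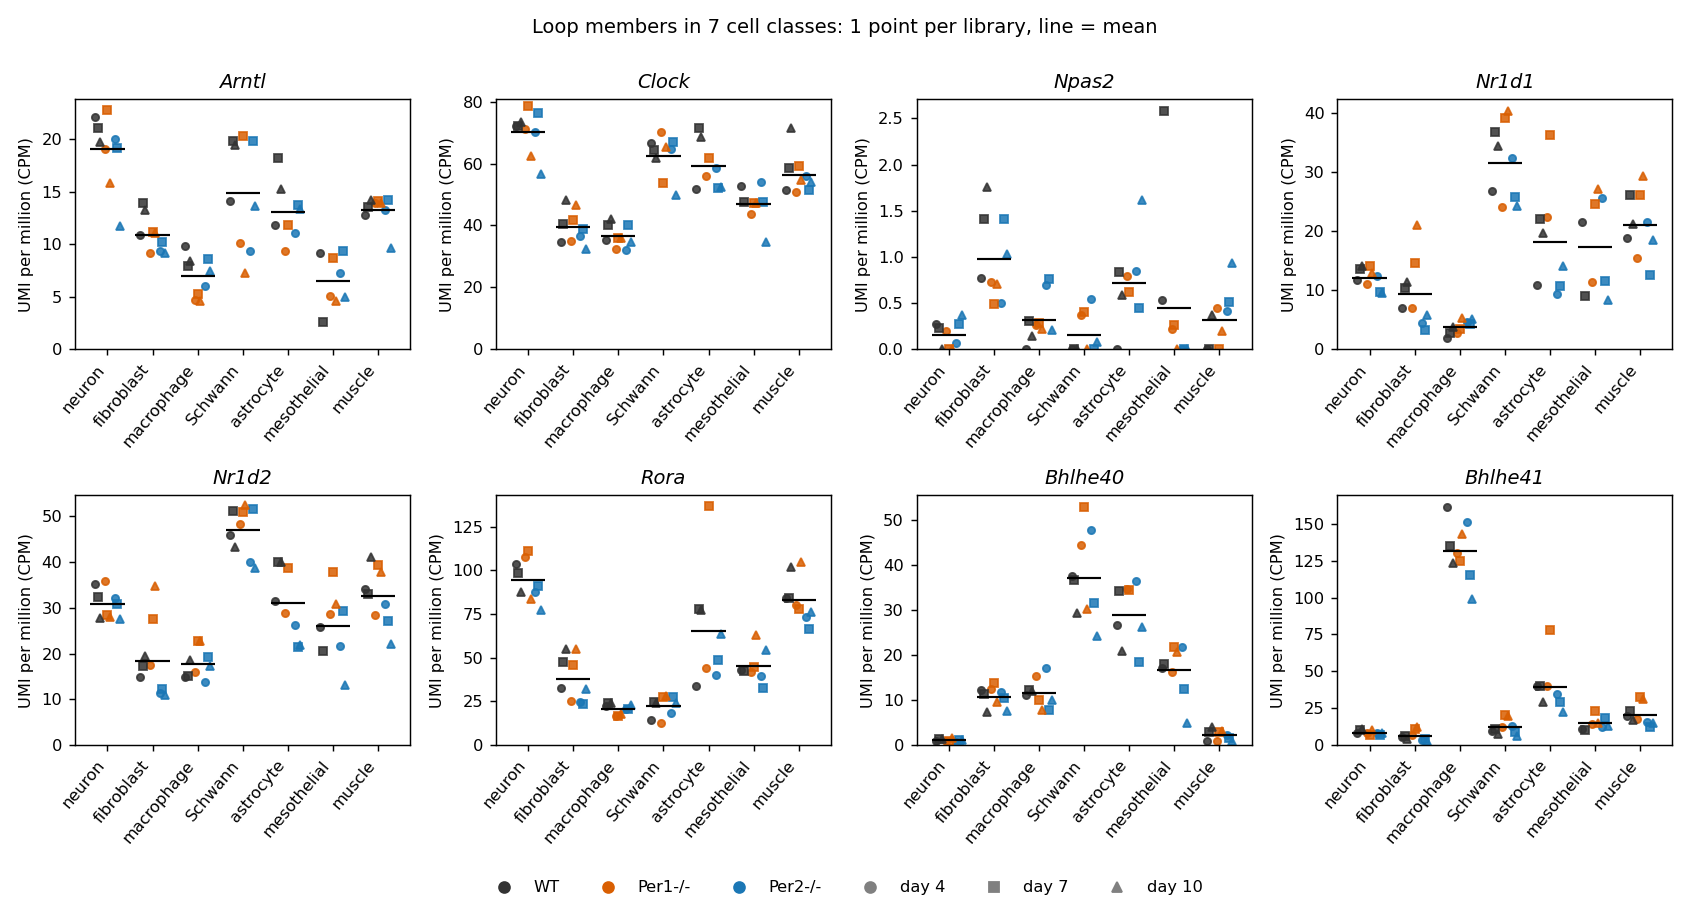
Level of each member in CPM (linear axes from 0) in 7 cell classes, with 1 point per library, coloured by genotype and shaped by day, and a line at the mean. Bhlhe41 stands between 99.2 and 161 CPM in macrophage-like sums, above every other class, and Bhlhe40 stays between 0.714 and 1.51 CPM in neuron-like sums.

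Arntl, the partner that CLOCK and NPAS2 share, is on the plus strand of chromosome 7, at 113207465 to 113314126 (GRCm38, as are the positions below). In neuron-like sums it stood at 22.1, 21.1 and 19.7 CPM in WT on days 4, 7 and 10, 19.1, 22.8 and 15.8 CPM in Per1-/-, and 19.999, 19.2 and 11.7 CPM in Per2-/-. In fibroblast-like sums the same libraries gave 10.9, 13.9 and 13.3 CPM in WT, 9.13, 11.1 and 11.1 CPM in Per1-/-, and 9.39, 10.2 and 9.19 CPM in Per2-/-. The neuron-like value was the higher one in all 9 libraries, although the lowest of them, Per2-/- on day 10, lay within the fibroblast-like range. The mean difference was 0.74 ± 0.27 (SD, n = 9) on the log2(CPM + 1) scale, a fold of 1.67 in CPM + 1 (as are all folds between classes below, which understate the fold of low levels), with an adjusted p of 0.00625 in the exact permutation test. Macrophage-like sums ran from 4.63 to 9.86 CPM and were lower than fibroblast-like sums by 1.52-fold in 9 of 9 libraries, at the same adjusted p of the exact test.

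Clock, the histone acetyltransferase partner of BMAL1 (chromosome 5, 76209868 to 76304792, minus strand), was highest on average in neuron-like cells. In neuron-like sums it ranged from 56.5 CPM (Per2-/-, day 10) to 78.5 CPM (Per1-/-, day 7), with a median of 72.1 CPM. Fibroblast-like sums ranged from 32.4 to 48.2 CPM and macrophage-like sums from 32.1 to 42.0 CPM, both below every neuron-like value. Neuron-like cells were 1.77-fold higher than fibroblast-like and 1.90-fold higher than macrophage-like cells (0.82 ± 0.20 and 0.93 ± 0.16, SD, n = 9, exact permutation adjusted p of 0.00625 for each). Macrophage-like minus fibroblast-like sums came to -0.10 ± 0.15 and missed the threshold (exact permutation test, adjusted p of 0.0848).

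Npas2, which can stand in for CLOCK (chromosome 1, 39193731 to 39363236, plus strand), was low in every class and highest on average in fibroblast-like cells among the named classes. Unnamed clusters held it too: the highest level was 2.06 CPM (95% counting interval 1.70 to 2.47, 118 UMI) in the unnamed cluster c6, and fibroblast-like clusters ran from 0.172 to 1.72 CPM. Fibroblast-like cells held 47.5% to 65.6% of all Npas2 UMI in 6 libraries and 11.5%, 11.9% and 12.5% in Per1-/- on days 7 and 10 and Per2-/- on day 10. Fibroblast-like sums held 69, 86 and 47 UMI in WT on days 4, 7 and 10, 105, 7 and 8 UMI in Per1-/-, and 44, 144 and 25 UMI in Per2-/-, or 0.494 to 1.76 CPM. Neuron-like sums held 0 to 6 UMI, and the 3 that held none, WT on day 10 and Per1-/- on days 7 and 10, allow up to 0.743, 0.825 and 0.696 CPM (exact Poisson 95% limits, WT day 10 first). Fibroblast-like sums were higher than neuron-like sums in 9 of 9 libraries, by 0.75 ± 0.32 on the log2(CPM + 1) scale (exact permutation, adjusted p of 0.00625), and higher than macrophage-like sums in 8 of 9 (0.57 ± 0.42, adjusted p of 0.0117). The added 1 CPM shrinks differences of a gene this low.

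Nr1d1 (chromosome 11, 98767932 to 98775333, minus strand), the REV-ERBα gene, was highest in Schwann-like sums, where it ranged from 24.1 to 40.3 CPM around a mean of 31.5 ± 6.46 CPM (SD, n = 9). Muscle-like cells followed at 21.1 ± 5.42 CPM, below Schwann-like cells in 9 of 9 libraries. Fibroblast-like sums stood at 7.03, 10.3 and 11.4 CPM in WT on days 4, 7 and 10, 6.92, 14.7 and 20.9 CPM in Per1-/-, and 4.397, 3.23 and 5.81 CPM in Per2-/-. All 3 Per2-/- values lay below all values of the other genotypes, and Per1-/- lay above WT on days 7 and 10. In macrophage-like sums Nr1d1 was at 1.87, 2.73 and 3.70 CPM in WT, 2.80, 3.46 and 5.24 CPM in Per1-/- and 4.62, 4.22 and 5.18 CPM in Per2-/-, from 7 to 164 UMI per sum. These values were lower than the fibroblast-like ones in 7 of 9 libraries, the exceptions being Per2-/- on days 4 and 7. The mean difference was -0.99 ± 0.84 (adjusted p of 0.0313, exact permutation test), and it no longer passed when any of 6 libraries was left out (adjusted p of 0.0563 to 0.0625). The 3′ ends of Nr1d1 and Thra, the thyroid hormone receptor α gene, overlap by 1075 bases on opposite strands. Genes on the opposite strand also overlap Arntl (Gm45355, 2394 bases), Bhlhe40 (0610040F04Rik, 306 bases) and Rora (Gm15511, 15359 bases). How counting treated strand is not given in the sources used here, so these values are uncertain to that extent.

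Nr1d2 (chromosome 14, 18204054 to 18239127, minus strand), the REV-ERBβ gene, shared the Schwann-like peak, at 46.9 ± 5.21 CPM (n = 9). Neuron-like sums held 27.5 to 35.9 CPM with little spread, and the 3 genotypes overlapped there. Fibroblast-like sums held 14.97, 17.3 and 19.5 CPM in WT, 17.5, 27.6 and 34.8 CPM in Per1-/-, and 11.3, 12.2 and 11.0 CPM in Per2-/-, in the same order of days. The order of genotypes, Per1-/- above WT above Per2-/-, was the same on each day. Neuron-like exceeded fibroblast-like cells in 8 of 9 libraries by 1.74-fold (adjusted p of 0.0165, exact permutation test), the exception being Per1-/- on day 10.

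Rora (chromosome 9, 68653786 to 69388246, plus strand), the activator at ROREs, reached 103, 98.4 and 87.8 CPM in WT, 108, 111 and 83.6 CPM in Per1-/-, and 87.5, 90.7 and 77.5 CPM in Per2-/- in neuron-like sums. Fibroblast-like sums held 32.9, 47.6 and 55.0 CPM in WT, 25.4, 46.1 and 55.2 CPM in Per1-/-, and 24.5, 23.7 and 31.9 CPM in Per2-/-. Every neuron-like value was above every fibroblast-like value, by 2.55-fold on average (1.35 ± 0.53, exact permutation adjusted p of 0.00625). Macrophage-like sums were lower still, at 16.4 to 24.1 CPM, 4.41-fold under neuron-like cells in 9 of 9 libraries. Muscle-like cells were close to neuron-like ones at 83.2 ± 12.6 CPM, and the 2 classes did not differ beyond their spread (adjusted p of 0.194, exact permutation test over all neighbouring classes).

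Bhlhe40 (chromosome 6, 108660629 to 108666925, plus strand), encoding DEC1, was low in neuron-like cells. Neuron-like sums held 0.714 to 1.51 CPM, against 7.46 to 13.8 CPM in fibroblast-like, 7.85 to 17.1 CPM in macrophage-like and 24.2 to 52.9 CPM in Schwann-like sums. The means were 1.10 CPM in neuron-like, 10.7 CPM in fibroblast-like and 11.5 CPM in macrophage-like sums. In CPM + 1, which shrinks these folds by much because the neuron-like level is near the added 1, fibroblast-like cells exceeded neuron-like cells 5.55-fold and macrophage-like cells exceeded them 5.87-fold, in 9 of 9 libraries each (exact permutation adjusted p of 0.00625). Muscle-like cells, at 2.20 ± 1.12 CPM, also lay below all fibroblast-like values.

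Bhlhe41 (chromosome 6, 145858243 to 145865558, minus strand), encoding DEC2, was highest in macrophage-like cells. Macrophage-like sums held 161, 135 and 123 CPM in WT on days 4, 7 and 10, 130, 125 and 143 CPM in Per1-/-, and 151, 116 and 99.2 CPM in Per2-/-. Fibroblast-like sums held 2.93 to 12.6 CPM and neuron-like sums 6.71 to 10.7 CPM, so neither overlapped the macrophage-like range. Macrophage-like cells were 19.5-fold above fibroblast-like and 13.9-fold above neuron-like cells (4.29 ± 0.58 and 3.80 ± 0.28, exact permutation adjusted p of 0.00625). Astrocyte-like cells came next, at 22.2 to 78.1 CPM in 8 libraries. Of the DEC pair, Bhlhe40 was thus highest on average in Schwann-like and Bhlhe41 in macrophage-like cells.

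Neighbours in the order of class means were tested in the same way over 48 pairs, of which 9 passed, each at an adjusted p of 0.0417 in the exact permutation test. Arntl was higher in astrocyte-like than in fibroblast-like cells (log2 difference of 0.23) and in fibroblast-like than in macrophage-like cells (0.60), and Clock in mesothelial-like than in fibroblast-like cells (0.28). Schwann-like exceeded muscle-like cells for both Nr1d1 (0.57) and Nr1d2 (0.53). Rora was higher in fibroblast-like than in Schwann-like cells (0.73), and Bhlhe40 in fibroblast-like than in muscle-like cells (1.93). Bhlhe41 was higher in macrophage-like than in astrocyte-like cells (1.78), and in astrocyte-like than in muscle-like cells (0.95). For Npas2 no neighbours differed beyond their spread. These pairs were tested for the members alone, so no share of all genes stands beside the count. With 1 library left out no pair passed, except without Per1-/- on day 10, where 8 did. The Clock and Rora pairs named above were not among those 8 (exact permutation adjusted p of 0.0625 each), so the 8 also hold a pair not named above. The smallest p of the exact test with 8 libraries is 0.00781, and it is larger for pairs with fewer sums.

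Across all cells kept, Bhlhe41 was the only member whose level passed the test for genotype or day. It stood at 10.6, 19.2 and 20.6 CPM in WT on days 4, 7 and 10, 14.7, 40.0 and 40.0 CPM in Per1-/-, and 9.97, 20.2 and 16.1 CPM in Per2-/-. Per1-/- was the highest library on each day, and day 4 the lowest in each genotype. Per1-/- exceeded WT by a log2 fold of 0.94 ± 0.16 (SE; edgeR quasi-likelihood test, adjusted p of 0.0250), a fold of 1.92, and within days the ratio was 1.39 (95% counting interval 1.32 to 1.47), 2.08 (1.999 to 2.17) and 1.94 (1.85 to 2.04). That is 1 of 8 members, where 2.55% of 18813 genes were called. Day 7 exceeded day 4 by 1.15 ± 0.16 (adjusted p of 0.00439 in edgeR), 1 of 8 members against 9.70% of genes. With no adjustment, edgeR gave 4 and 1 of 8 members a p under 0.05 in these 2 contrasts, against 17.5% and 25.6% of genes, and DESeq2 called 2 (Arntl and Bhlhe41) and 1 (Bhlhe41), against 7.86% and 15.7%. The day difference passed without any 1 library, at 0.94 to 1.25. Per1-/- against Per2-/-, at 0.98 ± 0.16, missed the threshold (adjusted p of 0.0559 in edgeR).

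The share of macrophage-like cells was also highest in Per1-/- on each day and lowest on day 4 in each genotype, but Per2-/- was above WT in this share on all 3 days, whereas its Bhlhe41 level was below that of WT on days 4 and 10. The share was 1.77%, 6.67% and 4.99% of kept cells in WT on days 4, 7 and 10, 4.28%, 23% and 16.1% in Per1-/-, and 2.59%, 11.7% and 9.34% in Per2-/-. These cells held 30.2%, 51.3% and 40.6% of all Bhlhe41 UMI in WT, 46.1%, 67.4% and 66.4% in Per1-/-, and 44.7%, 63.3% and 61.4% in Per2-/-. Within macrophage-like sums Bhlhe41 of Per1-/- and WT differed by 0.03 ± 0.14 (adjusted p of 0.954 in edgeR), with libraries of the 2 genotypes interleaved. In a sum over all cells, more cells of a type and more RNA per cell cannot be told apart. The genotype call was lost without Per1-/- on day 7 (adjusted p of 0.139 in edgeR), Per1-/- on day 10 (0.114), WT on day 7 (0.176), WT on day 10 (0.150) or Per2-/- on day 7 (0.0503), where the log2 fold stayed between 0.80 and 0.94. With Y-linked level as a covariate it was 0.48 and did not pass, and the part of that covariate in the result was not tested.

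**Figure D2:**
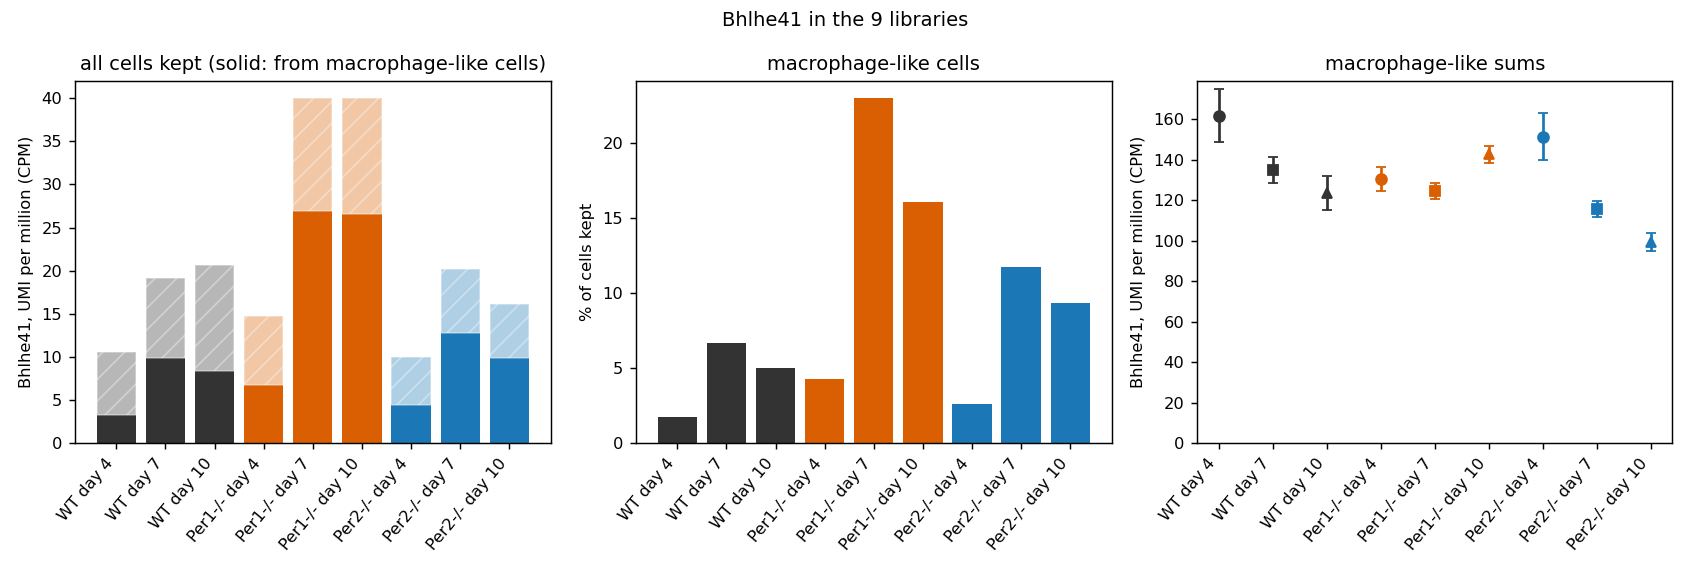
Bhlhe41 in the 9 libraries, coloured by genotype: level over all cells kept in CPM with the part from macrophage-like cells in solid colour (left), macrophage-like cells as % of cells kept (middle), and level within macrophage-like sums in CPM with 95% counting intervals (right). The bars of Per1-/- on days 7 and 10 reach 40.0 CPM, whereas the macrophage-like sums of the 3 genotypes share the range of 99.2 to 161 CPM.

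The other genotype and day contrasts over all cells called no member, against 0.00532% of genes in the Per2-/- against WT contrast, 0.271% in Per1-/- against Per2-/- and 1.60% in day 10 against day 7. At an unadjusted p under 0.05, edgeR gave 4, 5 and 1 of 8 members there, against 8.63%, 18% and 10.1% of genes. DESeq2 called 1 (Rora), 3 (Bhlhe41, Nr1d1 and Nr1d2) and 0, against 1.62%, 7.33% and 3.22% of genes. Arntl over all cells was at 12.6 to 13.8 CPM in WT, 8.68 to 10.3 CPM in Per1-/- and 10.3 to 11.4 CPM in Per2-/-, with every mutant library below every WT library. Its log2 fold of Per1-/- against WT was -0.35 ± 0.09 (adjusted p of 0.105 in edgeR, called by DESeq2). Rora of Per2-/- against WT was at -0.40 ± 0.10 (adjusted p of 0.276 in edgeR). Without Per1-/- on day 4, edgeR called 3 members for Per1-/- against WT (Npas2 at -1.07, Nr1d2 at 0.38 and Bhlhe41 at 1.15) and 4 for Per1-/- against Per2-/- (Npas2 at -1.205, Nr1d1 at 0.76, Nr1d2 at 0.66 and Bhlhe41 at 1.19), in fits that called 10.7% of genes for each of these contrasts. The Per1-/- libraries left in these fits, days 7 and 10, are the pair with almost no Xist and the highest Y-linked level, so genotype and that difference cannot be told apart there or in the other fits without Per1-/- on day 4.

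Within fibroblast-like cells no member passed for genotype or day, and the estimates farthest from 0 were those of Nr1d1, Bhlhe41 and Nr1d2 for Per1-/- against Per2-/-. The 3 genotype contrasts and day 7 against day 4 called 0% of 16252 genes, and day 10 against day 7 called 0.861%. Nr1d1 of Per1-/- exceeded Per2-/- by 1.46 ± 0.28 (SE, fold of 2.75; adjusted p of 0.296 in edgeR), and Nr1d2 by 1.06 ± 0.17 (fold of 2.09; adjusted p of 0.296). By day, the Nr1d1 ratio was 1.57 (95% counting interval 1.40 to 1.77), 4.54 (3.80 to 5.42) and 3.60 (2.91 to 4.47), which places all 3 days on the same side. Per2-/- against WT gave -0.99 ± 0.27 for Nr1d1, -0.48 ± 0.16 for Nr1d2 and -0.64 ± 0.16 for Rora, with adjusted p of 0.680, 0.762 and 0.680 in edgeR. Bhlhe41 of Per1-/- was higher than in Per2-/- by 1.40 ± 0.24 and than in WT by 0.93 ± 0.24, with adjusted p of 0.296 and 0.456. Arntl was at -0.28 ± 0.11 in Per1-/- and -0.31 ± 0.11 in Per2-/- against WT. The median of the 8 members was 0.11 for Per1-/- against WT, -0.40 in Per2-/- against WT and 0.35 between Per1-/- and Per2-/-, where the median of all genes tested was within 0.01 of 0.

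At an unadjusted p under 0.05, edgeR gave 3, 4 and 4 of 8 members for Per1-/- against WT, Per2-/- against WT and Per1-/- against Per2-/-, against 9.36%, 6.36% and 14.8% of genes. It gave 1 for each day contrast, against 13.5% of genes for day 7 against day 4 and 7.93% for day 10 against day 7. DESeq2 called 1, 0, 3, 0 and 1 member in these 5 contrasts, against 1.83%, 0.388%, 3.69%, 3.19% and 1.67% of genes, the 3 being Bhlhe41, Nr1d1 and Nr1d2. Without Per1-/- on day 4, the library in which Nr1d1 was not above WT, edgeR called 4 members for Per1-/- against Per2-/-: Nr1d1 at 1.80, Nr1d2 at 1.27, Rora at 0.70 and Bhlhe41 at 1.67 (adjusted p of 0.00217, 0.00119, 0.0161 and 0.00253), where 13.2% of genes were called. Per1-/- against WT then called Nr1d2 at 0.79 and Bhlhe41 at 1.196, where 8.46% of genes were called. For Bhlhe40 the lowest estimate was -0.59 ± 0.12 for day 10 against day 7 (adjusted p of 0.128 in edgeR, called by DESeq2).

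The fibroblast-like class was made of different clusters in different libraries. The cluster led by Slc14a1 and Cxcl5 (c1) held 43.2%, 53.5% and 46.5% of it in WT on days 4, 7 and 10, and on day 4 also 39.3% in Per1-/- and 36.4% in Per2-/-. The cluster led by Sncg and Anxa8 (c21) held 47.4% and 57.6% in Per1-/- on days 7 and 10, and the one led by Adamts3 and Eln (c2) held 71.9% and 78.7% in Per2-/- on these days. Nr1d1 differed between these clusters, with 12.8 to 24.9 CPM per library in c21 and 2.17 to 12.1 CPM in c2. Inside c21, Nr1d1 was at 14.7, 16.3 and 17.4 CPM in WT, 15.7, 22.3 and 24.9 CPM in Per1-/-, and 12.8, 13.8 and 18.4 CPM in Per2-/-. Per1-/- was again the highest and Per2-/- lay below WT on days 4 and 7 only, a narrower spread than in the whole class. Inside c1, the values were 6.44, 11.5 and 14.2 CPM in WT, 5.32, 7.95 and 23.8 CPM in Per1-/-, and 5.42, 3.81 and 6.34 CPM in Per2-/-. The part of cluster make-up in the genotype values was not tested. The summed level of the 15 macrophage markers in fibroblast-like sums was 25.02 to 67.6 CPM in WT, 40.3 to 89.5 CPM in Per1-/- and 18.6 to 123 CPM in Per2-/-, with all 15 detected in each sum, against 23793 to 31445 CPM in macrophage-like sums.

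**Figure D3:**
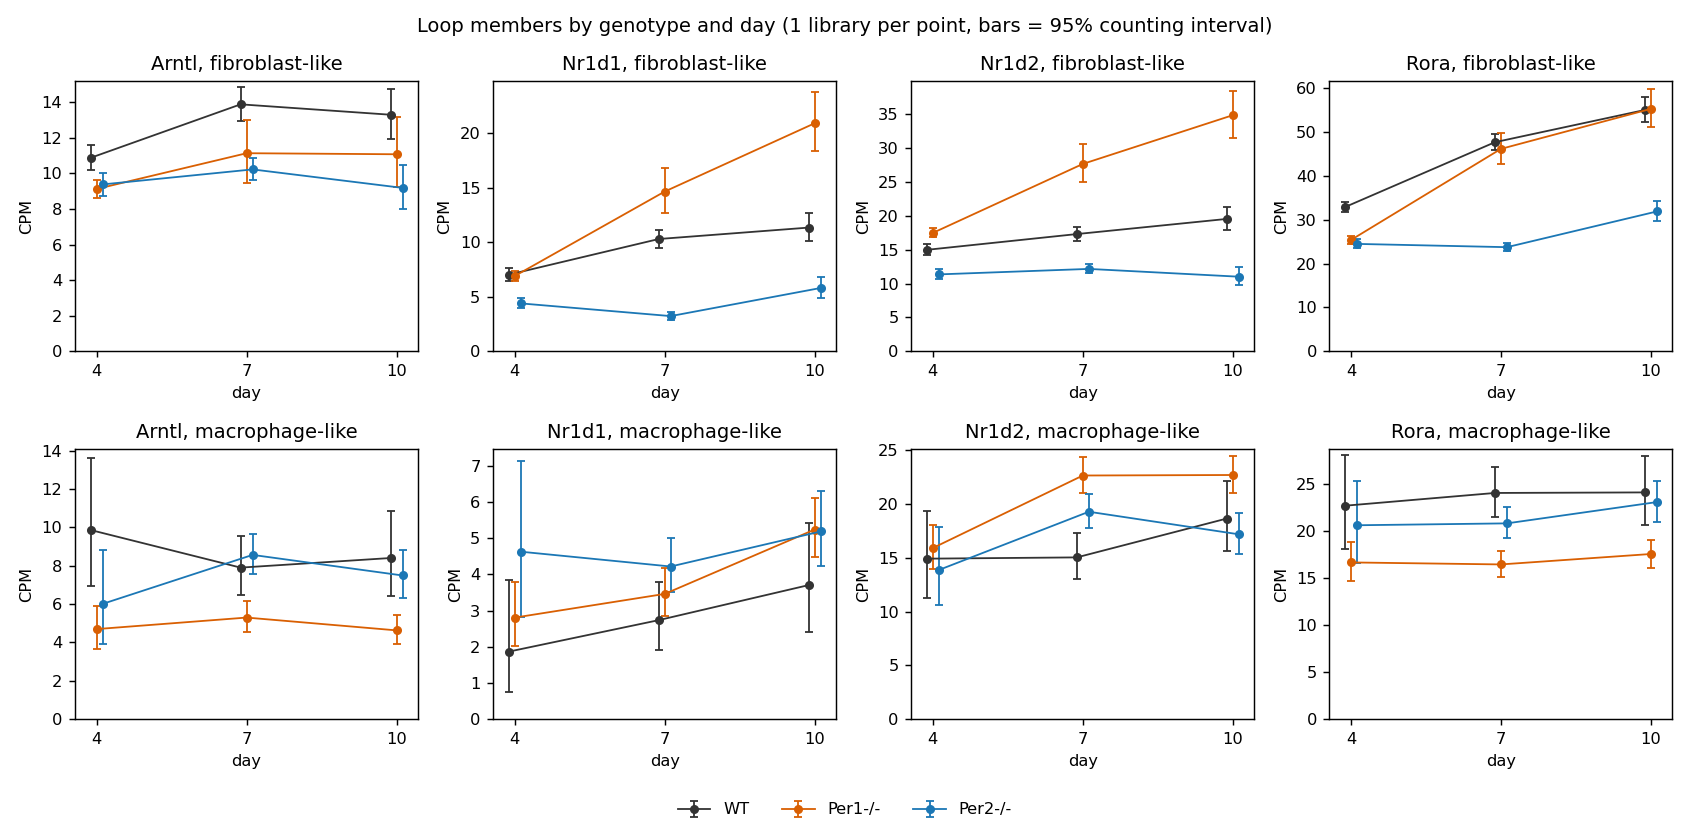
Arntl, Nr1d1, Nr1d2 and Rora in CPM by day in fibroblast-like sums (top) and macrophage-like sums (bottom), with 1 library per point, lines joining the days of a genotype and bars for the 95% counting interval. In fibroblast-like sums Nr1d1 of Per1-/- reaches 20.9 CPM on day 10 while that of Per2-/- stays at or under 5.81 CPM, and in macrophage-like sums all Nr1d1 values lie at or under 5.24 CPM.

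In macrophage-like cells no member passed either, where Per1-/- against WT and Per1-/- against Per2-/- each called 0.00773% of 12939 genes and Per2-/- against WT 0%. Most of this class was a cluster led by Fcrls and Pf4 (c5) in each library, from 53.2% in Per1-/- on day 4 to 82% in Per2-/- on day 7. Arntl stood at 9.86, 7.90 and 8.40 CPM in WT, 4.70, 5.30 and 4.63 CPM in Per1-/- and 6.01, 8.56 and 7.49 CPM in Per2-/-. All 3 Per1-/- values lay below all values of the other genotypes. The log2 fold was -0.72 ± 0.18 against WT and -0.61 ± 0.18 against Per2-/- (adjusted p of 0.306 and 0.254 in edgeR), and the within-day ratio to WT was 0.476 (95% counting interval 0.316 to 0.729), 0.671 (0.522 to 0.864) and 0.551 (0.405 to 0.759). Rora was at 22.7, 24.003 and 24.1 CPM in WT, 16.6, 16.4 and 17.5 CPM in Per1-/- and 20.6, 20.8 and 23.04 CPM in Per2-/-, again lowest in Per1-/- on each day (-0.39 ± 0.11 against WT, adjusted p of 0.306 in edgeR). Per library, Rora was at 35.6 to 63.9 CPM in the macrophage-like cluster c27 and 13.4 to 20.6 CPM in c5. Of the class, c27 held 19%, 14.5% and 12.3% in WT on days 4, 7 and 10. It held 10.5%, 6.54% and 7.44% in Per1-/-, the lowest share on each day, and 19%, 9.09% and 18.2% in Per2-/-. The part of cluster make-up in the genotype values of this class was not tested. Nr1d2 of Per1-/- was higher than WT by 0.44 ± 0.13 (adjusted p of 0.329), and Nr1d1 of Per2-/- than WT by 0.81 ± 0.24 (adjusted p of 0.206). At an unadjusted p under 0.05, edgeR gave 3, 1 and 2 of 8 members for Per1-/- against WT, Per2-/- against WT and Per1-/- against Per2-/-, against 11.5%, 16.0% and 13.3% of genes. DESeq2 called 0 in each, against 0.842%, 2.44% and 1.13% of genes.

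By day, macrophage-like cells called no member for day 7 against day 4 or day 10 against day 7, against 0.201% and 0.920% of genes. The members nearest to the threshold were Clock and Nr1d2 for day 7 against day 4, at 0.26 ± 0.09 and 0.40 ± 0.13 (adjusted p of 0.170 and 0.168 in edgeR). With no adjustment, edgeR gave 3 and 0 of 8 members a p under 0.05 for these day contrasts, against 19.0% and 8.90% of genes, and DESeq2 called 0 in both, against 4.14% and 1.48%.

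In neuron-like cells no member passed, where Per1-/- against WT and Per1-/- against Per2-/- called 0% of 14648 genes and Per2-/- against WT 0.00683%. Npas2 was too low to be tested there. For the other 7 members the estimates ran from -0.18 to 0.08 for Per1-/- against WT, from -0.33 to -0.06 for Per2-/- against WT and from 0.03 to 0.23 for Per1-/- against Per2-/-. All 7 were below 0 in the second of these and above 0 in the last, 2 contrasts that share the Per2-/- libraries. On day 10 the ratio of Per2-/- to WT was 0.594 for Arntl (95% counting interval 0.459 to 0.773), 0.673 for Nr1d1 (0.499 to 0.914), 0.769 for Clock (0.678 to 0.874) and 0.883 for Rora (0.789 to 0.990), each below 1 beyond counting error in that pair of libraries, while the intervals of Nr1d2 (0.989), Bhlhe40 (0.848) and Bhlhe41 (0.777) included 1. On days 4 and 7 the ratio was 0.904 and 0.912 for Arntl and 0.972 and 1.06 for Clock, with intervals that include 1. It was 1.06 and 0.716 for Nr1d1 and 0.9997 and 0.680 for Bhlhe41, below 1 beyond counting error on day 7 only, and 0.847 and 0.922 for Rora, below 1 on both days. Day contrasts called no member although 15.3% of genes were called for day 7 against day 4 and 5.20% for day 10 against day 7. Arntl had the lowest adjusted p of these, at -0.37 ± 0.14 for day 10 against day 7 (adjusted p of 0.163 in edgeR). Pooled over libraries, Arntl was at 21.65, 13.94 and 24.91 CPM in the neuron-like clusters c4, c11 and c28. In WT, c4 held 67.8% of the class on day 4 and 32.6% on day 10. On day 10, c28 held 24.3% in WT, where the class had 239 cells of the shallowest library, and 9.63% in Per2-/-. The part of cluster make-up in the values of this class was not tested. At an unadjusted p under 0.05, edgeR gave 0, 0 and 1 of 7 members for the genotype contrasts, with Rora of Per1-/- against Per2-/- at 0.23 ± 0.08, and 0 and 1 for the day contrasts. Of all genes, 4.14%, 5.13% and 7.65% had such a p for the genotype contrasts and 30.1% and 23.2% for the day contrasts. DESeq2 called no member in any of the 5 contrasts, against 0.132%, 0.174%, 0.291%, 13.2% and 6.92% of genes.

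**Figure D4:**
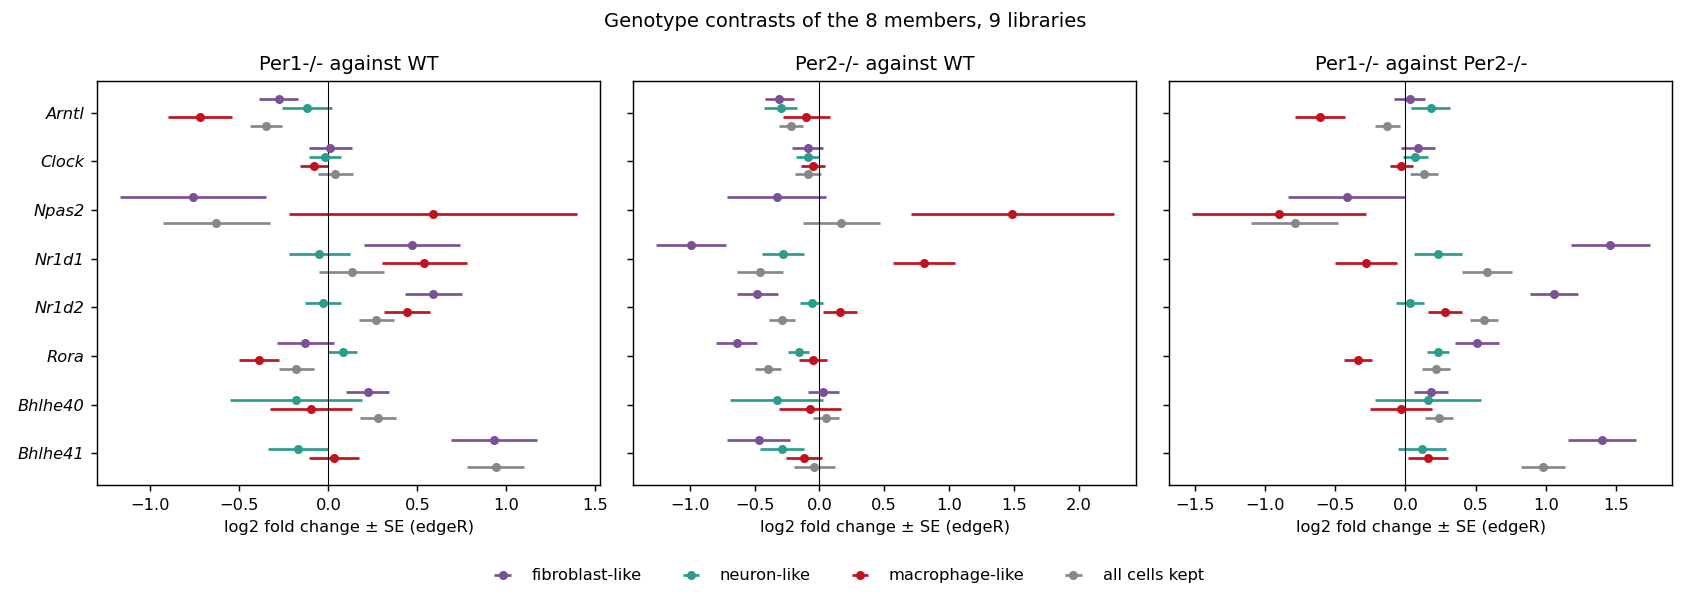
Genotype contrasts of the 8 members as log2 fold change ± SE (edgeR, 9 libraries) in fibroblast-like, neuron-like and macrophage-like sums and over all cells kept. Neuron-like estimates stay between -0.33 and 0.23, whereas fibroblast-like Nr1d1 reaches 1.46 for Per1-/- against Per2-/-, and of all points shown the all-cell estimate of Bhlhe41 for Per1-/- against WT passed the test.

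Whether a genotype difference depended on the class was tested as an interaction, in which 0% of 15595 genes passed for macrophage-like against fibroblast-like cells and 0% of 15987 genes for neuron-like against fibroblast-like cells, in each of the 3 contrasts. For Per1-/- against Per2-/-, macrophage-like cells differed from fibroblast-like cells by -1.23 ± 0.14 in Bhlhe41 (adjusted p of 0.0850 in edgeR), by -1.85 ± 0.26 in Nr1d1 (0.177), by -0.81 ± 0.17 in Nr1d2 (0.179) and by -0.88 ± 0.18 in Rora (0.179). DESeq2 called these 4. At an unadjusted p under 0.05, edgeR gave 1, 4 and 5 of 8 members in macrophage-like cells for Per1-/- against WT, Per2-/- against WT and Per1-/- against Per2-/-, against 15%, 14.6% and 17.4% of genes, and 2, 3 and 3 in neuron-like cells, against 5.82%, 5.42% and 11.2%. DESeq2 called 1, 1 and 4 members in macrophage-like cells, against 0.601%, 1.94% and 1.42% of genes, and 0, 0 and 2 in neuron-like cells, against 0.0585%, 0.0724% and 0.174%. In neuron-like cells the same contrast differed by -1.21 ± 0.26, -1.15 ± 0.21 and -0.97 ± 0.18 in Bhlhe41, Nr1d1 and Nr1d2 (adjusted p of 0.399 each in edgeR), and DESeq2 called the last 2. Without Per1-/- on day 4 or without Per2-/- on day 4, edgeR called the same 4 members in macrophage-like cells for that contrast, where 6.29% and 1.46% of genes were called. Without Per1-/- on day 4 it called the 3 in neuron-like cells, where 9.13% of genes were called. For Per1-/- against WT without Per1-/- on day 4, edgeR called Bhlhe41 in macrophage-like cells at -0.93 (3.45% of genes called) and Bhlhe41 and Nr1d2 in neuron-like cells at -1.39 and -0.84 (3.28%). For Per2-/- against WT without Per2-/- on day 4, it called Nr1d1 and Rora in macrophage-like cells at 1.999 and 0.81 (1.35%). The lowest adjusted p of Arntl and Clock in these interactions were 0.222 and 0.626.

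Levels also varied between clusters inside the macrophage-like class. The cluster led by Siglech and Cx3cr1 (c27) held 225, 189 and 165 CPM of Bhlhe41 in WT on days 4, 7 and 10, 208, 157 and 171 CPM in Per1-/-, and 188, 142 and 123 CPM in Per2-/-. In c5 the values were 168, 138 and 135 CPM in WT, 137, 131 and 143 CPM in Per1-/-, and 145, 115 and 94.97 CPM in Per2-/-. The c27 value was the higher one in each library, and day 4 was the highest day of c27 in each genotype. Rora separated these clusters further, with 35.6 to 63.9 CPM per library in c27, 13.4 to 20.6 CPM in c5 and 8.02 to 18.6 CPM in the dividing cluster c23. The cells of a cluster were also clustered on other genes that differ between them, so these values are a description with no test.

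**Figure D5:**
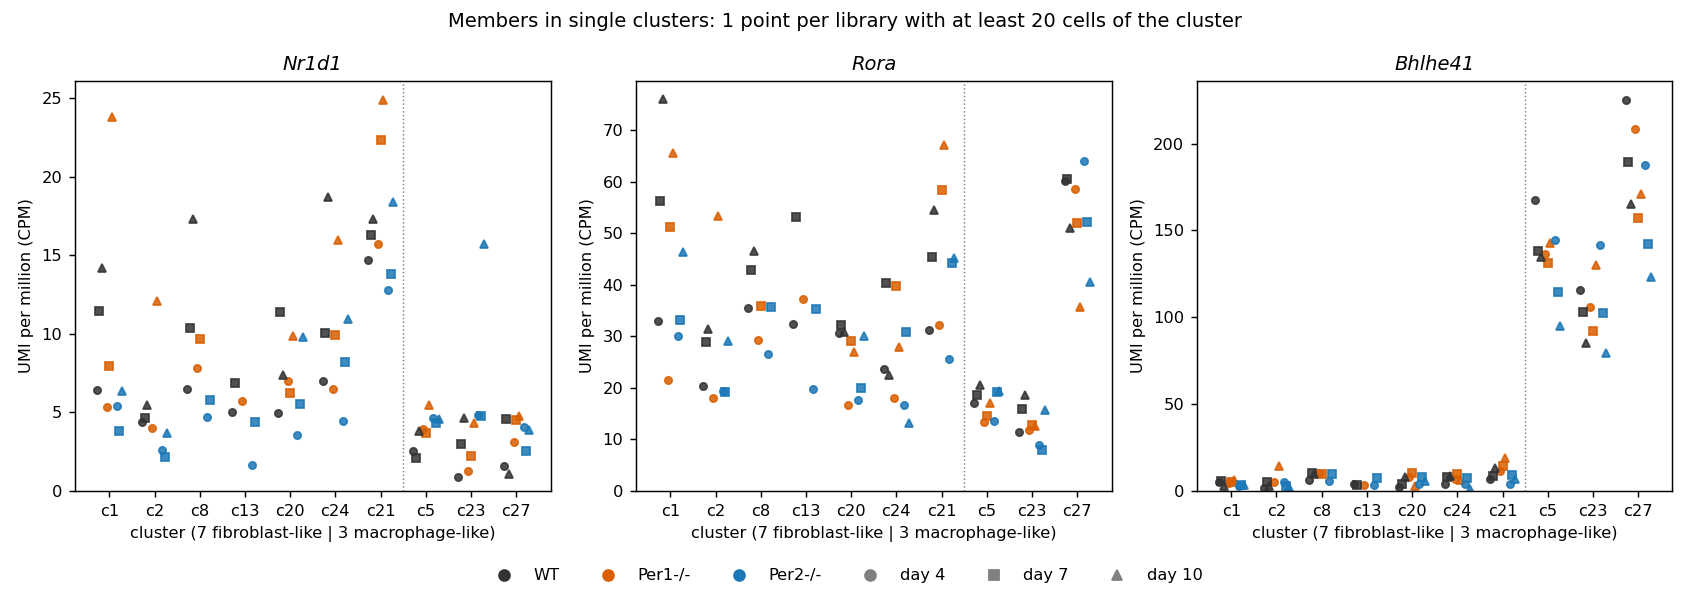
Nr1d1, Rora and Bhlhe41 in CPM in the 7 fibroblast-like clusters (left of the dotted line) and 3 macrophage-like clusters (right), with 1 point per library with at least 20 cells, coloured by genotype and shaped by day. Rora is at 35.6 CPM or more in c27 and at 20.6 CPM or less in c5 and c23, and Nr1d1 reaches 24.9 CPM in c21.

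Arntl was set beside its loop partners across the 9 libraries, in fibroblast-like and macrophage-like sums, and none of the 10 relations passed. Arntl and Rora came closest, with r = 0.86 and rho = 0.68 in macrophage-like sums (exact permutation p of 0.00502 for r and 0.0503 for rho, adjusted 0.0502 and 0.147) and r = 0.78 and rho = 0.73 in fibroblast-like sums (exact permutation p of 0.0127 and 0.0311, adjusted 0.0634 and 0.147). Centred within days, r was 0.90 and 0.81. Without the 2 libraries farthest from the median of Arntl, r was 0.75 and 0.73. For the repressor genes, r with Arntl was -0.36 (Nr1d1) and -0.37 (Nr1d2) in macrophage-like sums but 0.54 and 0.42 in fibroblast-like sums, with adjusted p of 0.232 to 0.371 in the exact permutation tests. Points of a sum share their library and depth.

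Of 23 further clock genes listed for comparison (Per and Cry genes, the PAR-bZIP factors and regulators of the loop), Per1 and Per2 were called for genotype over all cells, each in 1 of the 3 contrasts and as 1 of 23 genes, where 2.55% of all genes were called for Per1-/- against WT and 0.271% for Per1-/- against Per2-/-. Per1 was higher in the libraries labelled Per1-/- than in WT by 0.58 ± 0.12 (adjusted p of 0.0485 in edgeR), and Per2 lower in Per1-/- than in Per2-/- (-1.07 ± 0.15, adjusted p of 0.0485). For day 7 against day 4 over all cells, 0 of 23 rose and 3 fell, among them Csnk1e, a kinase of PER proteins, by 0.62 ± 0.12, and Rorb, a paralog of Rora, by 0.61 ± 0.15, where 9.70% of all genes were called (1256 higher and 569 lower of 18813). In neuron-like cells 3 of 23 fell as well, among them Csnk1e by 0.41 ± 0.10 and Dbp by 0.55 ± 0.11, where 15.3% of all genes were called. Dbp, a PAR-bZIP factor and direct target of the BMAL1 pair, rose on day 7 in macrophage-like cells by 1.15 ± 0.14 (adjusted p of 0.0356 in edgeR), 1 of 19 tested, where 0.201% of all genes were called. Fibroblast-like cells called none of 23 in any contrast. The median of the 23 stayed between -0.06 and 0.15 in the genotype contrasts, where that of all genes was within 0.01 of 0.

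Because DEC genes respond to low oxygen, 18 hypoxia targets were read beside them. None was called for genotype in any class. For day 7 against day 4 over all cells, 0 rose and 3 fell (Ddit4, Egln3 and Vegfa, by 0.64, 0.67 and 0.46), 3 of 18 against 9.70% of all genes, in the contrast in which Bhlhe41 rose and Bhlhe40 was at 0.06 ± 0.10. In neuron-like cells Pgk1 rose by 0.35 and Egln3, Kdm3a and Mxi1 fell by 0.63, 0.50 and 0.79, 4 of 17 tested against 15.3% of all genes. For day 10 against day 7, 2 of 17 rose there, Higd1a by 0.46 and Pgk1 by 0.41, against 5.20% of all genes.

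Finally, each member was set beside all 11501 genes of sufficient level over the 61 class and library sums, as a description over sums that share libraries. Nr1d2 was most like Taok1 (r = 0.89) and its own paralog Nr1d1 (r = 0.84). Bhlhe41 was most like Efhd2 (r = 0.93) and 2610507B11Rik (r = 0.92), Bhlhe40 most like Slc39a1 (r = 0.91) and Pros1 (r = 0.89), and Rora most like A230057D06Rik (r = 0.92) and Hoxa7 (r = 0.91). Clock was most like Slc30a9 (r = 0.91), Arntl most like Stk38l (r = 0.84) and Ppp6r3 (r = 0.82), and Nr1d1 most like Igsf9b (r = 0.87) and Arhgef12 (r = 0.86). Npas2 had the weakest likeness, at r = 0.63 to Msx1 and 0.60 to Lhx2. No member had another of the 8 among its nearest genes except Nr1d2.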

How the data were processed

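For each of 9 libraries (3 genotypes on 3 days, 1 library each) the authors deposited a matrix of raw UMI counts, whole numbers with genes against barcodes. Per the labels, libraries were made with the Chromium Next GEM Single Cell 3′ kit and the authors used Cell Ranger 7.1 and mm10 (submitters' processing notes). The file headers name Cell Ranger 4.0.0 for days 4 and 7 (31053 genes) and 6.0.0 for day 10 (32285 genes), so day 10 and software cannot be told apart, while genotypes share both. Only the 30406 shared gene identifiers were used, which hold 99.3% to 99.9% of UMI.

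Of 95603 barcodes, 81999 passed the limits of the study's methods, a minimum of 3000 UMI and a maximum of 20% of UMI from mitochondrial genes. The automatic Scrublet threshold (scanpy 1.11.5) marked 0 to 1026 cells per library, so passed cells were ranked by score instead. For every 1000 barcodes of a library, 0.8% of its passed cells were removed as doublets, 7164 in all. All 81999 passed cells, doublets included, were clustered on log-normalised counts (2000 variable genes, 30 principal components, 15 neighbours, Leiden resolution 1, leidenalg 0.10.2), leaving out 67 genes, the 8 members among them, which gave 35 clusters. Doublets were then left out of the sums. Clusters were named from marker lists and kept unnamed where leading genes went against the name. They also stayed unnamed where no class was reached, where over 30% of cells were scored as doublets, or where they held under 50 cells. The adipocyte and neural genes that kept some clusters rich in fibroblast markers unnamed were listed after the clusters were seen. The members, gene lists and markers were chosen with earlier results of these data known. All members are named, other clock or hypoxia genes where they passed the threshold, the targeted genes always, and for likeness the 2 genes with the highest Pearson r. Some genes that this rule would name are not reported here.

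UMI were summed per class and library, with at least 20 cells. CPM scales a gene's UMI to the total of that sum, and intervals are exact 95% Poisson intervals, which cover counting error only. Genotype and day were tested in edgeR 4.0.16 (R 4.3.3; TMM, filterByExpr, quasi-likelihood F-test, day and genotype as factors, 2-sided, Benjamini-Hochberg over all genes tested, threshold 0.05). Interactions were fitted on the sums of 2 classes with a term per library. Classes were compared within libraries on log2(CPM + 1) with exact sign-flip permutation tests. DESeq2 1.42.0, other size factors, filters, doublet handling, clustering resolution 0.5, covariates and left-out libraries were alternatives, and a wider fibroblast-like class was added after the data were seen. Shares of genes called by DESeq2 are over genes to which it gave an adjusted p. The scripts were tested on simulated data. Positions are from GENCODE M21 and motif letters were searched in the RefSeq promoter table. As nothing says that libraries of a genotype come from separate cultures, p-values measure the spread between these libraries.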

Additional observations from a re-analysis of the deposited data

Results flagged for a closer look

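The items below were flagged by a rule, searched over the 8 members, the 3 genotype contrasts and macrophage-like and neuron-like cells. It takes ratios on the same side of 1 on every day in fibroblast-like sums and on the opposite side in the other class. That all days lie on the same side is thus the rule itself and no support. Nr1d1 of the libraries labelled Per2-/- lay on opposite sides of WT in 2 classes. In fibroblast-like sums the ratio to WT was 0.625, 0.314 and 0.512 on days 4, 7 and 10, below 1 on each day, and in macrophage-like sums it was 2.48, 1.54 and 1.40, above 1 on each day. The 95% counting interval of the latter was 1.01 to 6.94, 1.06 to 2.30 and 0.902 to 2.25, which includes 1 on day 10. The macrophage-like sums of WT rest on 7, 36 and 26 UMI. In fibroblast-like cells, the cluster c2, low in Nr1d1, held 71.9% and 78.7% of Per2-/- on days 7 and 10, against 20.5% and 34.5% of WT. Inside the cluster c21, Per2-/- lay below WT on days 4 and 7 only. The part of cluster make-up in these ratios was not tested. The difference between the classes was 1.94 ± 0.29 on the log2 scale (1.945), and the test of the difference did not pass (edgeR, adjusted p of 0.196). DESeq2 called it (1.93, adjusted p of 0.000960), as did edgeR without Per2-/- on day 4 (1.999, adjusted p of 0.0427).

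Rora did likewise for Per1-/- against Per2-/-. Its ratio was 1.04, 1.94 and 1.73 in fibroblast-like sums and 0.808, 0.790 and 0.761 in macrophage-like sums, so every day lay above 1 in one class and below 1 in the other. The difference was -0.88 ± 0.18, and its test did not pass (edgeR, adjusted p of 0.179). DESeq2 called it (-0.92, adjusted p of 0.00844), as did edgeR without Per1-/- on day 4 (-1.004, adjusted p of 0.0122) or without Per2-/- on day 4 (-1.03, adjusted p of 0.0276). On day 4 the fibroblast-like ratio had a 95% counting interval of 0.983 to 1.09, which includes 1. The part of cluster make-up in the Rora ratios was not tested either.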

How the results depend on the processing

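Replicates could not be paired between genotypes, because the labels give no replicate numbers and each genotype and day has 1 library. The genotype fits carry day as a factor, and comparisons of classes are within libraries. Counts of members called changed as follows, and the cause was not tested. Over all cells, Per1-/- against WT called 1 member in edgeR, 2 with DESeq2, and 0 with Y-linked genes as covariate, with no day term or without day 10. With DESeq2, Per2-/- against WT called 1 and Per1-/- against Per2-/- called 3 over all cells, and the latter called 2 with no filter on low counts, where 0.868% of genes were called. In fibroblast-like cells DESeq2 called 1 for Per1-/- against WT, 3 for Per1-/- against Per2-/- and 1 for day 10 against day 7, where edgeR called 0. The covariate gave 2 for Per2-/- against WT (Nr1d1 at -1.33 and Rora at -0.82, adjusted p of 0.0285 in edgeR, 0.769% of genes called), and the wider fibroblast-like class, added after the data were seen, gave 1 for day 7 against day 4 (Bhlhe41, 2.02% of genes called). Interactions of macrophage-like cells went from 0 to 1, 1 and 4 with DESeq2 for Per1-/- against WT, Per2-/- against WT and Per1-/- against Per2-/-, and to 1 in the last with RLE size factors (0.0256% of genes called). Those of neuron-like cells went to 2 for Per1-/- against Per2-/- with DESeq2.

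Leaving out 1 library at a time gave 0 to 3 members for Per1-/- against WT and 0 to 4 for Per1-/- against Per2-/- over all cells, and 0 to 2 and 0 to 4 in fibroblast-like cells. Interactions ranged from 0 to 1, 0 to 2 and 0 to 4 in macrophage-like cells, and from 0 to 2 (Per1-/- against WT) and 0 to 3 (Per1-/- against Per2-/-) in neuron-like cells. Neighbouring classes past the threshold fell from 9 to 0, or to 8 without Per1-/- on day 10, since 8 libraries allow few small p. The 3 main class pairs past the threshold ranged from 17 to 18. The relation of Arntl with Npas2 in fibroblast-like sums (r = 0.57) turned to -0.16 without the 2 farthest libraries. All other counts were within 1.5 times of the values given. Values of single genes and pairs were followed only for members with an unadjusted p under 0.05 in edgeR and for class pairs that passed. Interactions of single members were not followed. Of the values followed, 380 kept their direction and side of the threshold under the alternatives other than leaving out 1 library, 14 came to pass and 4 no longer passed. With 1 library left out, 498 kept both, 11 came to pass and 85 no longer passed. None of the values followed turned its direction in either, and estimates of members with a larger p were not counted. Depth limits Npas2, with at most 23 UMI in a macrophage-like sum, and Nr1d1 in macrophage-like cells of WT, with 7 UMI on day 4. A value that did not pass is not shown to be equal between groups.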

Other observations

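The smaller classes carried the loop at levels of their own, read here as values per library with no test of genotype. In Schwann-like cells, the glia of peripheral nerves, Nr1d1 stood at 26.8, 36.7 and 34.3 CPM in WT on days 4, 7 and 10, 24.1, 39.1 and 40.3 CPM in Per1-/-, and 32.4, 25.8 and 24.2 CPM in Per2-/-. Per2-/- was the highest on day 4 and the lowest on days 7 and 10. Bhlhe41 in these cells was at 9.74, 11.1 and 7.44 CPM in WT, 12.4, 20.3 and 19.9 CPM in Per1-/-, and 13.2, 8.66 and 6.51 CPM in Per2-/-, highest in Per1-/- on days 7 and 10.

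In muscle-like cells Bhlhe41 had the same order on these days, at 32.9 and 31.4 CPM in Per1-/- against 23.1 and 17.2 CPM in WT and 12.2 and 14.999 CPM in Per2-/-. Arntl was nearly level there, at 12.8 to 14.3 CPM in 8 libraries and 9.69 CPM in Per2-/- on day 10. In astrocyte-like cells 1 library stood apart in several members: Per1-/- on day 7, with 52 cells, held 137 CPM of Rora, 78.1 CPM of Bhlhe41 and 36.2 CPM of Nr1d1, against at most 77.7, 40.3 and 22.4 CPM in the other 7 sums. The macrophage markers in that sum came to 244 CPM, against 16.1 to 346 CPM in the others.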
